A study of Mus musculus with 4 samples.

Results

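The complement genes C1qa, C1qb, C1qc, C3, C4b, C3ar1, C5ar1 and Itgam were followed through single-nucleus RNA sequencing (snRNA-seq) of the mouse brain. These 8 genes were taken as a list of names from the 31053 genes counted in the nuclei, with earlier results of these data known. The study asked how vascular endothelial growth factor C (VEGF-C), delivered into the cerebrospinal fluid, changed brain cells of mice that had not had a stroke. The mice were male C57BL/6J animals, collected at 8 weeks of age and 4 weeks after an adeno-associated virus (AAV) was injected into the cisterna magna. AAV-VEGF-C carried full-length mouse VEGF-C. AAV-CTRL carried a soluble fragment of the receptor VEGFR3 that does not bind VEGF-C, so every animal had received a virus. Brains of 5 mice per virus were pooled, and nuclei of tissue labelled cortex and striatum gave 4 libraries, with 1 library for each combination of region label and virus and with both regions of a virus taken from the same mice. No group has a second library. The differences below therefore have no replicate check, no test was run, and the intervals (95%) cover counting error only.

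Complement is a cascade of plasma and tissue proteins that marks particles for removal. In the classical pathway C1q, built of A, B and C chains, binds a target, and C4 and C3 are then cleaved and deposited on it. The receptors C3ar1 and C5ar1 sense the small C3a and C5a fragments, and Itgam encodes CD11b, a chain of complement receptor 3, which engulfs material coated with C3 fragments. In the brain, microglia are known as a main source of C1q, astrocytes can make C3 and C4, and complement takes part in the removal of synapses during development and disease.

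Of the 8 genes, C1qa, C1qb and C1qc lie side by side on chromosome 4 within 18675 bases, from position 136880129 to 136898803 of the mm10 assembly (annotation GENCODE vM21), all on the minus strand. C3 spans 24167 bases of chromosome 17 and C4b 15503 bases of the same chromosome. C3ar1 is on chromosome 6, and C5ar1 and Itgam are on chromosome 7. C4a, a near-identical neighbor of C4b, was not among the genes counted. Reads of C4a may be counted under C4b or lost, and C4b values are uncertain in that respect. Promoter sequences were at hand for 6 of the 8 genes and are credited to RefSeq (GRCm38.p6). The promoters below are printed 5′ to 3′ for C1qb and C1qc, which share a locus, for Itgam, which like them had its highest levels in myeloid nuclei, and for C3, which did not. In the first 3, capitals mark GAGGAA or its reverse complement TTCCTC, the core to which PU.1 (Spi1), a transcription factor of myeloid cells, is known to bind, and in C3 they mark TATAAA.
C1qb (chr4:136886151-136886450, minus strand): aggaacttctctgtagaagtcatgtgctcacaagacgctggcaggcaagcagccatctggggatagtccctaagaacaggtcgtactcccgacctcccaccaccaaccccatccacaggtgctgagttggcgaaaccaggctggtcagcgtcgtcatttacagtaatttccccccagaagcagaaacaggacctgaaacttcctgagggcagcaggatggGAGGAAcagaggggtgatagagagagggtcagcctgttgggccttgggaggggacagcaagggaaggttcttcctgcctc
C1qc (chr4:136892865-136893164, minus strand): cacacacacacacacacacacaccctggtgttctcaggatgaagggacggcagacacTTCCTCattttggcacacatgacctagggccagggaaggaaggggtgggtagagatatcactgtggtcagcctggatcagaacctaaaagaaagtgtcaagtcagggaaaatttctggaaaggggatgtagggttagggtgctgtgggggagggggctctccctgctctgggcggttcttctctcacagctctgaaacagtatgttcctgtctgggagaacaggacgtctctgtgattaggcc
Itgam (chr7:128062390-128062689, plus strand): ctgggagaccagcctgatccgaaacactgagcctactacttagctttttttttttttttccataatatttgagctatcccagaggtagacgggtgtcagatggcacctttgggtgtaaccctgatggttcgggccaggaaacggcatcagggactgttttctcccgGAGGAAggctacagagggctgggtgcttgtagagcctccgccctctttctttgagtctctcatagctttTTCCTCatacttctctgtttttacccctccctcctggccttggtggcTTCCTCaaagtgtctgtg
C3 (chr17:57228087-57228386, minus strand): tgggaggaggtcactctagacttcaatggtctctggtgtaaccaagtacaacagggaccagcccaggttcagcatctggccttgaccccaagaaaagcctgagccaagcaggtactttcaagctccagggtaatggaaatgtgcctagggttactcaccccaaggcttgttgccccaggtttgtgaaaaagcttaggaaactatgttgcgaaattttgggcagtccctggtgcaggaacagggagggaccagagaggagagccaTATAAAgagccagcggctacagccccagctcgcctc
GAGGAA on either strand was found in 3 of the 6 promoters, those of C1qb, C1qc and Itgam, with 3 matches in Itgam. It was not found in the promoters of C3ar1 and C5ar1, which also had their highest levels in myeloid nuclei, nor in that of C3. The letters GAGGAA occur in 28.3% of all 32851 promoters of this length. TATAAA was found in 2 of the 6, C3 and C3ar1, against 13.6% of all promoters, and the match in C3 lies downstream of the annotated start. These are matches of letters, not measured binding sites.

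The libraries held 17168 to 23724 nuclei and 63165470 to 78332657 unique molecular identifiers (UMIs, each 1 counted RNA molecule). After removal of called doublets and of clusters rich in them, 72843 nuclei were kept, at median depths of 2126 to 2645 UMIs, and 275 to 344 barcodes of each library also occurred in another. Nuclei were clustered without the complement genes and named from marker genes, which gave 2351 microglia-like and 209 macrophage-like nuclei, beside 8384 astrocyte-like, 10179 oligodendrocyte-like, 2956 endothelial-like and 39083 neuronal nuclei. Levels are given as UMIs of the gene per 1000000 UMIs of all nuclei of a class (CPM), with the pair labelled cortex before the pair labelled striatum and, in each pair, AAV-CTRL before AAV-VEGF-C. Checks of the labels bear on what follows. The striatal neuron genes Ppp1r1b and Drd1 were lower in the libraries labelled striatum, at 18.8 and 18.4 CPM of Ppp1r1b against 63.4 and 75.8 CPM in those labelled cortex. Slc17a7, a gene of cortical excitatory neurons, followed the labels, at 421 and 463 CPM in cortex and 59.8 and 42.6 CPM in striatum. The regions are therefore called by their labels alone. Vegfc was at 12.2, 11.8, 12.9 and 11.8 CPM of all kept nuclei, and whether RNA of the viral VEGF-C is counted under this gene is not given in the sources used here.

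C1q was highest in microglia-like and macrophage-like nuclei in all 4 libraries. Summed over C1qa, C1qb and C1qc, microglia-like nuclei held 2324, 2815, 1856 and 2223 CPM, and macrophage-like nuclei held 2106, 2523, 2281 and 1897 CPM. The ranges of these classes over the libraries overlap, and neither stands above the other. MHC class II cell-like nuclei, 89 in all, followed with 1257, 778, 1314 and 1442 CPM. The next class, smooth muscle-like nuclei, held 242, 360, 147 and 213 CPM, below every value of the myeloid classes. Macrophage marker genes summed to 537, 935, 388 and 499 CPM in the smooth muscle-like nuclei, with all 10 markers detected, and their part in the C1q level was not tested. Among the single chains C1qa averaged 924 CPM in microglia-like and 871 CPM in macrophage-like nuclei, C1qb 698 and 573 CPM, and C1qc 683 and 758 CPM, each pair with overlapping ranges. Microglia-like nuclei carried 62.5% and 65.4% of all C1q UMIs in the libraries labelled cortex and 41.0% and 49.4% in those labelled striatum.

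**Figure D1:**
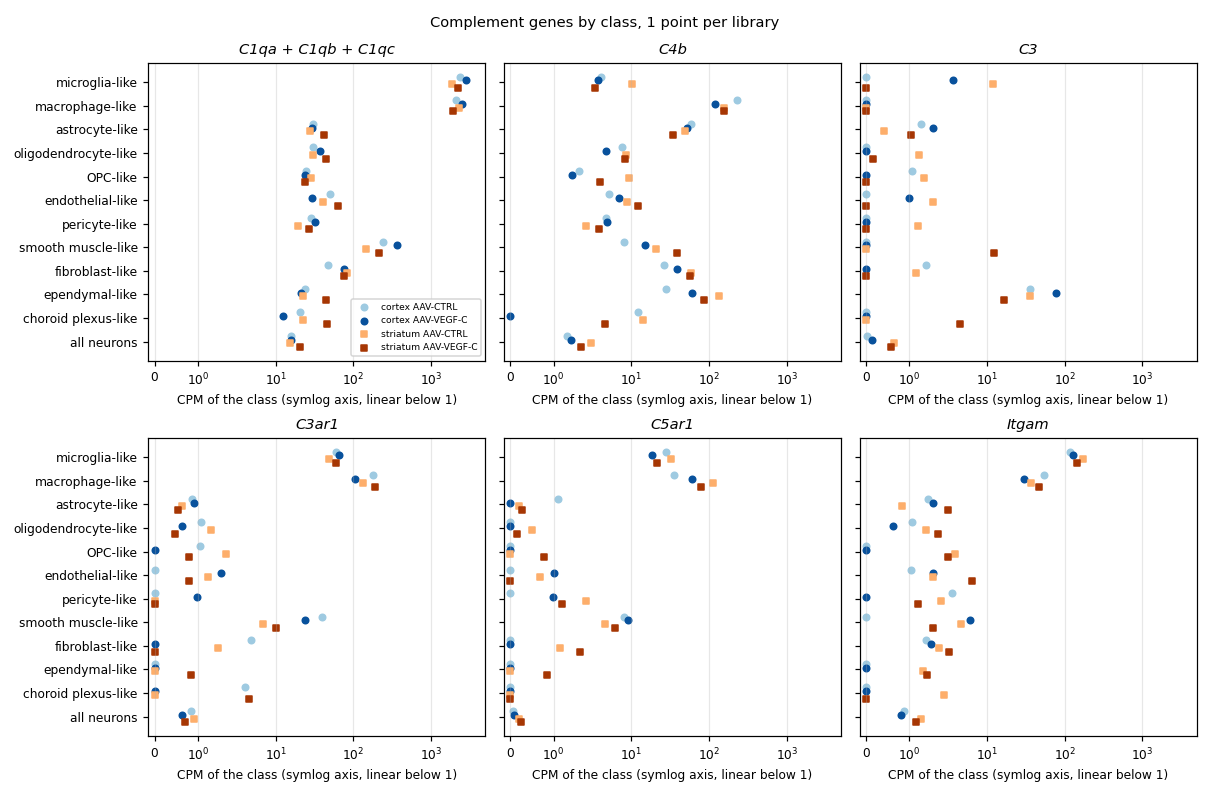
Level of C1q (3 chains summed), C4b, C3, C3ar1, C5ar1 and Itgam in CPM (horizontal axis, symlog, linear below 1) by class, with 1 point per library colored by region label and AAV. C1q stands between 1856 and 2815 CPM in microglia-like and macrophage-like nuclei, while C3 in ependymal-like nuclei lies at 16.7 to 76.0 CPM.

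Within microglia-like nuclei, every C1q chain had a higher level in the AAV-VEGF-C library than in the AAV-CTRL library of the same region label, by less than 1.5-fold. C1qa was at 919 CPM in cortex AAV-CTRL and 1140.5 CPM in cortex AAV-VEGF-C, and at 733 and 902 CPM in the corresponding libraries labelled striatum. For C1qb the levels were 690 and 801 CPM, then 595 and 706 CPM. C1qc had 715 and 873 CPM, then 527 and 614 CPM. In the cortex pair the counting intervals did not overlap between the viruses for any chain. In the striatum pair they did not overlap for C1qa, and they overlapped for C1qb (539 to 656 against 652 to 764 CPM) and for C1qc (474 to 585 against 563 to 668 CPM). For the 3 chains summed, the log2 ratio of AAV-VEGF-C over AAV-CTRL was 0.28 (0.20 to 0.36) in cortex and 0.26 (0.16 to 0.36) in striatum, from 1263 to 3065 UMIs per library. The C1qa ratio was 0.31 in cortex and 0.30 in striatum, that of C1qb 0.22 and 0.25, and that of C1qc 0.29 and 0.22.

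Set beside all other genes, these ratios were in the upper part and not at its edge. Among genes with at least 500 UMIs in microglia-like nuclei, 50 of 722 had a higher ratio than C1qa in cortex and 27 of 424 in striatum. For C1qb these counts were 95 and 40 genes, and for C1qc 59 and 55. At the minimum of 20 UMIs, 1915 of 10968 genes had a higher ratio than C1qa in cortex and 1916 of 10439 in striatum. There the counts were 2696 and 2293 for C1qb, and 2070 and 2462 for C1qc. Of the 8 genes, 6 reached 20 UMIs in microglia-like nuclei, and none of them passed 1.5-fold upward in either region label, where 5.84% of all tested genes did in cortex and 5.79% in striatum. Downward, C5ar1 passed in cortex, against 5.68% of all genes, and no member passed in striatum, against 7.94%. The 11 microglia markers summed to 9061 and 9358 CPM in the cortex pair and to 9212 and 10023 CPM in the striatum pair, so that they too were higher with AAV-VEGF-C, and their part in the C1q ratio was not tested.

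The microglia-like nuclei of the region labels came from different clusters. Cluster 64, led by Siglech, Fcrls, Csf3r, Selplg and 8030442B05Rik, held 608 and 684 nuclei of the libraries labelled cortex. Cluster 68, led by Ly86, Inpp5d, Siglech, Selplg and Csf3r, held 407 and 450 nuclei of those labelled striatum. Within cluster 64 the C1q sum was 2358 CPM with AAV-CTRL and 2900.1 CPM with AAV-VEGF-C, a log2 ratio of 0.30 (0.22 to 0.38). Within cluster 68 it was 1982 and 2275 CPM, a log2 ratio of 0.20 (0.09 to 0.30). A further cluster of the class, cluster 90, led by F630028O10Rik, Runx1, Ptprc, Pik3ap1 and Mir142hg, held 151 nuclei at a median of 1016.5 UMIs, and its C1q levels of 1599.9, 869.6, 596 and 1011 CPM were lower with AAV-VEGF-C in cortex (log2 ratio -0.88) and higher in striatum (0.76). A total of 157 C1q UMIs stand behind its values. None of the genes that led cluster 90 was a microglia marker used here.

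Across the region labels, C1q was lower in microglia-like nuclei labelled striatum than in those labelled cortex for both viruses. The log2 ratio of striatum over cortex was -0.32 (-0.43 to -0.22) with AAV-CTRL and -0.34 (-0.42 to -0.26) with AAV-VEGF-C. Here C1qc differed most, at -0.44 and -0.51, and C1qb least, at -0.21 and -0.18. Genes of neighboring cells moved with the region label in the same nuclei: excitatory neuron markers summed to 3281 and 3429 CPM in cortex and to 739 and 672 CPM in striatum, and oligodendrocyte markers to 1267 and 1176 CPM against 2833 and 2846 CPM. Both regions of a virus share their mice, and the part of these genes in the C1q difference was not tested.

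**Figure D2:**
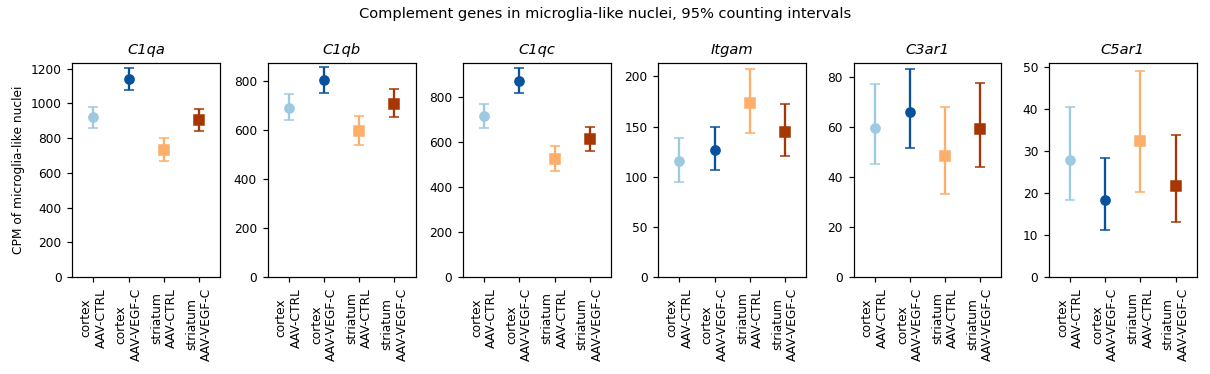
Level in CPM of microglia-like nuclei (vertical axes, from 0, each gene on its own scale) of C1qa, C1qb, C1qc, Itgam, C3ar1 and C5ar1 in the 4 libraries, with 95% Poisson intervals of the counts as bars. The C1q chains are higher with AAV-VEGF-C in both region labels, as for C1qa at 1140.5 against 919 CPM and 902 against 733 CPM, while the intervals of C3ar1 and C5ar1 overlap between libraries.

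At the level of single nuclei, 89.0%, 92.4%, 84.4% and 89.5% of microglia-like nuclei had a UMI of at least 1 C1q chain, at median depths of 1444, 1444, 1403 and 1738 UMIs. Once each nucleus was thinned to 1000 UMIs, with 11 to 55 shallower nuclei left out per library, the shares were 81.9%, 87.6%, 77.9% and 78.7%. The cortex pair still differed, at 78.6 to 84.8% against 84.9 to 89.95%, and the striatum intervals, 73.6 to 81.8% and 74.7 to 82.2%, overlapped. All 3 chains were found together in 29.8%, 40.9%, 22.9% and 37.4% of microglia-like nuclei, and in 16.3%, 23.8%, 13.1% and 17.2% after thinning. After thinning, C1qa was found in 62.9%, 67.0%, 57.1% and 61.9% of nuclei with C1qb, against 49.6%, 56.1%, 46.1% and 44.2% of nuclei without it. C1qa made up 39.6%, 40.5%, 39.5% and 40.6% of the C1q UMIs of microglia-like nuclei. C1qb and C1qc made up 29.7% and 30.8% in cortex AAV-CTRL, 28.45% and 31.0% in cortex AAV-VEGF-C, 32.1% and 28.4% in striatum AAV-CTRL, and 31.8% and 27.6% in striatum AAV-VEGF-C. The intervals of these chains overlapped within each library except striatum AAV-VEGF-C, where they were 29.7 to 33.9% and 25.65 to 29.67%.

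**Figure D3:**
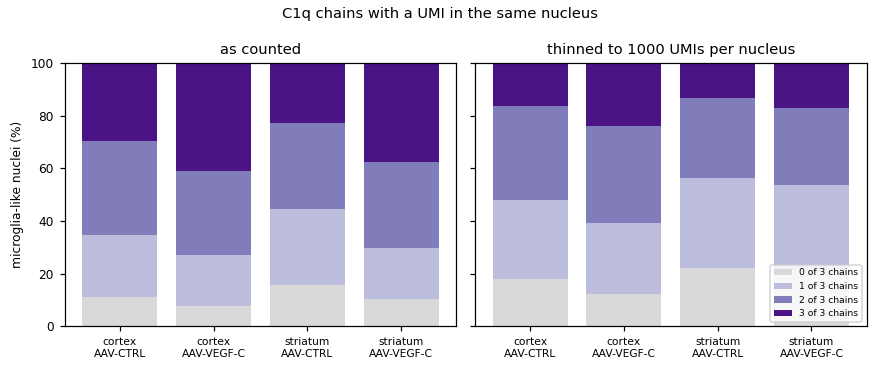
Share of microglia-like nuclei (vertical axis, %) with UMIs of 0, 1, 2 or 3 C1q chains in each library, as counted (left) and with every nucleus thinned to 1000 UMIs (right). The part with all 3 chains is 29.8% in cortex AAV-CTRL and 40.9% in cortex AAV-VEGF-C as counted, and 16.3% and 23.8% after thinning.

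Outside the myeloid classes, C1q UMIs were thin but present in every large class. Neuronal nuclei held 15.9, 15.75, 15.1 and 20.5 CPM, which is 0.685%, 0.56%, 0.814% and 0.924% of the level of microglia-like nuclei in the same library. A UMI of C1q was found in 6.12%, 6.22%, 5.65% and 9.39% of neuronal nuclei, at median depths of 3880 to 4645 UMIs, and in 4.65%, 5.60%, 4.84% and 8.56% of oligodendrocyte-like nuclei. In CPM the neuronal level lay below the 29.9 to 44.9 CPM of oligodendrocyte-like nuclei, a type taken as one that should lack C1q. The shares of nuclei with a UMI were higher in neuronal nuclei, while oligodendrocyte-like nuclei had lower median depths, of 1606 to 2019 UMIs. Whether the neuronal UMIs are background or expression was not tested. C1qa took 36.5% to 39.0% of the C1q UMIs of neuronal nuclei, near its share in microglia-like nuclei. In several large classes the level was higher in striatum AAV-VEGF-C, where the log2 ratio of the C1q sum over striatum AAV-CTRL was 0.44 (0.29 to 0.59) in neuronal, 0.64 (0.30 to 0.98) in astrocyte-like and 0.59 (0.31 to 0.86) in oligodendrocyte-like nuclei, larger than the 0.26 of microglia-like nuclei. It was -0.12 (-0.56 to 0.31) in fibroblast-like and -0.29 (-1.03 to 0.45) in oligodendrocyte precursor-like nuclei. In the cortex pair the ratio was -0.02 (-0.16 to 0.13) in neuronal, -0.02 (-0.40 to 0.37) in astrocyte-like and 0.29 (-0.13 to 0.72) in oligodendrocyte-like nuclei. Of the 8 genes, C1qa and C1qb passed 1.5-fold upward in astrocyte-like nuclei labelled striatum, against 4.06% of all genes there, with 18.3 against 8.32 CPM of C1qa. In oligodendrocyte-like nuclei C1qb passed upward in both region labels, from 7.28 to 11.7 CPM in cortex and from 8.92 to 17.5 CPM in striatum. Of all genes in these nuclei, 439 of 12756 passed upward in cortex and 484 of 14707 in striatum. C4b passed downward in their cortex pair, where 520 of 12756 genes did. The C1q sum of astrocyte-like nuclei was 1.05% to 1.91% of the microglial level of the same library. That of oligodendrocyte-like nuclei, the type taken as lacking C1q, was similar at 1.30% to 2.02%. In endothelial-like nuclei the C1q sum stood at 50.2, 29.1, 40.2 and 63.3 CPM, and in pericyte-like nuclei at 28.2, 32.2, 19.4 and 26.8 CPM. C1qa and C1qc of endothelial-like nuclei passed 1.5-fold downward in cortex, where 649 of 10696 genes did. Both passed upward in striatum, where 530 of 11957 genes did.

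C4b, the cleaved component that follows C1q in the classical pathway, was spread over macrophage-like, ependymal-like, astrocyte-like and fibroblast-like nuclei. Its level was 232, 121, 156 and 157 CPM in macrophage-like nuclei, from 8 to 21 UMIs per library. In ependymal-like nuclei, the ciliated lining of the ventricles, it was 27.6, 60.3, 135 and 86.1 CPM. Astrocyte-like nuclei held 58.6, 51.4, 48.7 and 34.2 CPM from 129 to 234 UMIs, and fibroblast-like nuclei 25.9, 38.3, 57.9 and 57.6 CPM. The ranges of neighbors in this order overlap, so the order of neighbors is not settled by the 4 libraries. The macrophage-like levels, on few UMIs, all lay above the astrocyte-like and fibroblast-like levels. With each library clustered on its own, astrocyte-like nuclei led instead. Microglia-like nuclei were low, at 4.12, 3.67, 10.3 and 3.42 CPM, and neuronal nuclei held 1.49, 1.67, 3.02 and 2.22 CPM. Astrocyte-like nuclei are many, and carried 52.6% and 53.9% of all C4b UMIs in the libraries labelled cortex and 28.5% and 24.5% in those labelled striatum.

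Astrocyte-like nuclei held less C4b with AAV-VEGF-C in the striatum pair, with a log2 ratio of -0.51 (-0.83 to -0.19). In the cortex pair the ratio was -0.19 (-0.47 to 0.09), an interval that includes 0. Of 7670 genes with at least 200 UMIs in astrocyte-like nuclei labelled striatum, 43 had a lower ratio than C4b. At the minimum of 20 UMIs, 721 of 14276 genes had a lower ratio than C4b. The ratio did not reach 1.5-fold, and no member did so downward in these nuclei in either region label, where 3.55% of all genes did in cortex and 3.64% in striatum. Upward, 3.15% of all genes and no member passed in cortex. Split by cluster, astrocyte-like nuclei of cluster 2, led by Gm35552, Gldc, Gm10561, Pdzph1 and Slc1a3 and mostly labelled cortex, held 57.9, 50.6, 91.4 and 76.0 CPM. Those of cluster 4, led by A330076C08Rik, Agt, Etnppl, Itih3 and Slc6a11 and mostly labelled striatum, held 77.7, 78.3, 41.0 and 29.3 CPM. The striatum ratio was -0.48 (-0.86 to -0.12) within cluster 4 and -0.27 (-0.94 to 0.37) within cluster 2. A UMI of C4b was found in 7.81%, 7.48%, 7.23% and 5.93% of astrocyte-like nuclei, against 1.21%, 0.785%, 1.43% and 1.54% of oligodendrocyte-like nuclei. C4b in oligodendrocyte-like nuclei stood at 7.64, 4.75, 8.59 and 8.36 CPM, above the neuronal level in each library. Whether these UMIs are background or expression was not tested.

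**Figure D4:**
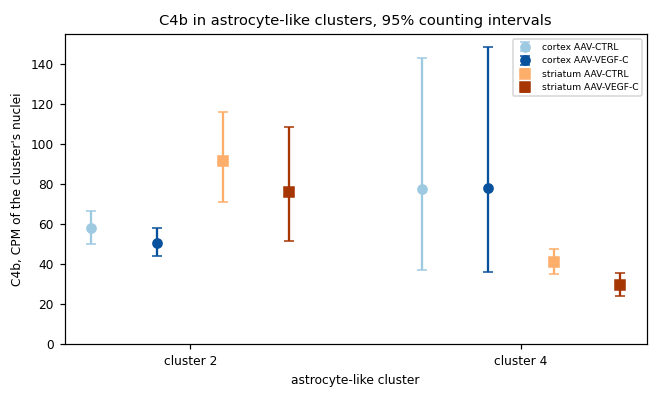
C4b in CPM (vertical axis, from 0) in the astrocyte-like clusters 2 and 4, 1 point per library with its 95% Poisson interval. In cluster 4 the libraries labelled striatum lie at 41.0 CPM with AAV-CTRL and 29.3 CPM with AAV-VEGF-C, and in cluster 2 the libraries labelled cortex lie at 57.9 and 50.6 CPM.

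C3, the central component on which the pathways meet, was rare, with 243 UMIs in all kept nuclei. Ependymal-like nuclei held the most on average, at 35.4, 76.0, 35.5 and 16.7 CPM, and from 35.1% to 64.3% of the C3 UMIs of a library. These levels rest on few nuclei: 10, 4, 23 and 6 nuclei had a UMI of C3, and 1 nucleus alone gave 6 of 18, 19 of 29, 7 of 48 and 15 of 20 UMIs. Without that nucleus in each library the levels were 23.8, 28.8, 31.1 and 4.54 CPM. The nuclei that gave 19 and 15 UMIs held 33693 and 95180 UMIs of all genes. Neuronal nuclei had 1, 8, 27 and 23 UMIs of C3, at or below 0.643 CPM. In striatum AAV-VEGF-C these 23 UMIs were more than the 20 of ependymal-like nuclei. Astrocyte-like nuclei had 5, 9, 2 and 4 UMIs of C3, or 0.416 to 2.04 CPM. In microglia-like nuclei 0, 4, 8 and 0 UMIs were counted, 9 of these 12 in cluster 90, whose leading genes held no microglia marker. Over all libraries, cluster 90 stood at 53.9 CPM (24.6 to 102) and the ependymal-like cluster 15 at 33.5 CPM (27.6 to 40.2), with overlapping intervals. The UMIs of cluster 90 were 4 in cortex AAV-VEGF-C and 5 in striatum AAV-CTRL. No UMI of C3 was found in macrophage-like nuclei, which allows a level of up to 53.5, 45.3, 22.3 and 47.0 CPM (3 counts per library). C3 is known to be induced in reactive astrocytes, and the 20 UMIs over 8384 astrocyte-like nuclei leave its level there near the limit of detection.

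The receptors were led by the myeloid classes. Itgam was at 115, 127, 173 and 145 CPM in microglia-like nuclei and at 53.5, 30.2, 37.2 and 47.0 CPM in macrophage-like nuclei, where 2 to 5 UMIs per library were counted, so that its lowest microglial level lay above its highest macrophage level. A UMI of Itgam was found in 14.6%, 16.7%, 22.3% and 22.5% of microglia-like nuclei. Unlike C1q, Itgam was higher in striatum than in cortex with AAV-CTRL, with a log2 ratio of 0.59 (0.20 to 0.97), and the ratio with AAV-VEGF-C was 0.19 (-0.17 to 0.55). Its AAV ratio in microglia-like nuclei was 0.13 (-0.24 to 0.51) in cortex and -0.26 (-0.63 to 0.11) in striatum. C3ar1 had the reverse order of classes, with 178, 106, 134 and 188 CPM in macrophage-like and 59.8, 66.1, 48.5 and 59.2 CPM in microglia-like nuclei, ranges that do not overlap. Its AAV ratio in microglia-like nuclei was 0.15 (-0.37 to 0.67) in cortex and 0.29 (-0.37 to 0.96) in striatum. C5ar1 gave 179 UMIs in all, fewer than Itgam and C3ar1. It stood at 35.7, 60.4, 111 and 78.4 CPM in macrophage-like and 27.8, 18.4, 32.3 and 21.6 CPM in microglia-like nuclei. Its microglial level was lower with AAV-VEGF-C in both pairs, with log2 ratios of -0.60 (-1.51 to 0.29) and -0.58 (-1.54 to 0.37), on 19 to 27 UMIs per library. All of these AAV intervals of the receptors include 0, and no difference was detectable at this depth. Outside the myeloid and smooth muscle-like classes, the receptors were at or below 6.41 CPM in endothelial-like nuclei and at or below 1.40 CPM in neuronal nuclei. In smooth muscle-like nuclei C3ar1 was at 39.7, 23.8, 6.90 and 10.2 CPM, from 3 to 10 UMIs per library. C5ar1 was at or below 8.93 CPM there, and Itgam at or below 5.96 CPM. Macrophage markers were also detected in these nuclei, and their part was not tested.

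In the smaller classes the AAV ratios of the complement genes scattered in both directions. Macrophage-like nuclei numbered 39, 44, 92 and 34. Of the 4 members with 20 UMIs in the cortex pair, C1qa passed 1.5-fold upward, from 696 to 1163 CPM, and C4b downward, from 13 to 8 UMIs, where 14.7% of all tested genes passed upward and 12.1% downward. For C4b, 1 nucleus gave 5 of the 13 UMIs of cortex AAV-CTRL. Without the nucleus with most C4b UMIs in each library, the levels were 146 and 108 CPM, less than 1.5-fold apart. In the striatum pair none of the 6 members passed, against 13.6% and 14.5%, and C1qa was at 966 CPM with AAV-CTRL and 658 CPM with AAV-VEGF-C. In fibroblast-like nuclei C1qa passed upward in cortex (16.2 and 30.7 CPM, from 10 and 16 UMIs) against 8.2% of all genes, no member passed downward against 7.17%, and none passed in striatum, against 4.81% upward and 11.4% downward. The cortex ratio of C1qa in fibroblast-like nuclei was -0.70 with nuclei thinned to 1000 UMIs. In ependymal-like nuclei, 58 to 616 per library, C3 and C4b passed upward in cortex, against 10.7% of all genes, and none passed downward, against 8.14%. Both of these ratios were below 0 once nuclei above 10000 UMIs were left out, at -3.36 for C3 and -0.36 for C4b. In the striatum pair of the same class C1qb and C1qc passed upward, against 6.25%, and C3 and C4b downward, against 5.69%. C1qb went from 4 to 16 UMIs (2.96 to 13.4 CPM) and C1qc from 13 to 22 UMIs (9.62 to 18.4 CPM). Oligodendrocyte-like nuclei of striatum AAV-VEGF-C held 17.5 CPM of C1qb and 13.0 CPM of C1qc. C4b in ependymal-like nuclei was lower with AAV-VEGF-C in striatum at a log2 ratio of -0.65 (-1.01 to -0.29), from 182 and 103 UMIs. Between region labels it was higher in striatum with AAV-CTRL, at a log2 ratio of 2.29 (1.51 to 3.19), and with AAV-VEGF-C the ratio was 0.51 (-0.15 to 1.23). These AAV-CTRL values are of nuclei whose ependymal markers summed to 8353 CPM in cortex and 3739 CPM in striatum and whose astrocyte markers summed to 3673 and 7353 CPM, and their part was not tested.

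**Figure D5:**
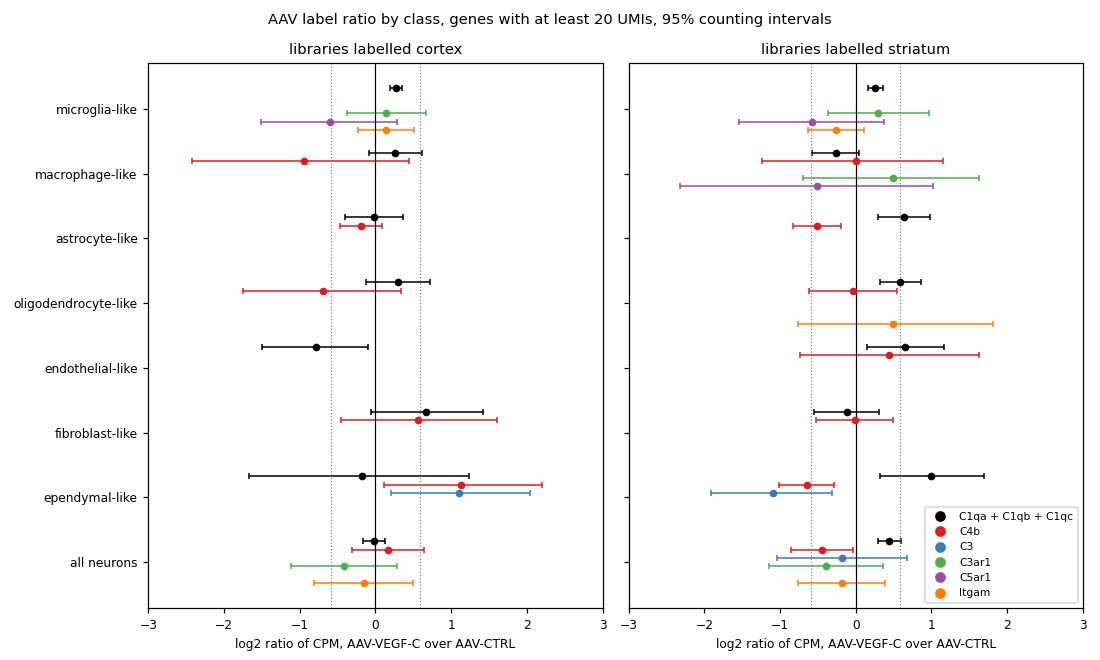
Log2 ratio of CPM, AAV-VEGF-C over AAV-CTRL (horizontal axis), of C1q and the other complement genes by class for the libraries labelled cortex (left) and striatum (right), with 95% counting intervals, for genes with at least 20 UMIs in the pair. Dotted lines mark 1.5-fold. C1q in microglia-like nuclei lies at 0.28 and 0.26, inside the dotted lines and off 0, and C3 and C4b of ependymal-like nuclei lie on opposite sides of 0 in the 2 panels.

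The wider complement list held 62 genes in 6 roles, of which 61 were counted. In microglia-like nuclei 22 of them reached 20 UMIs in the cortex pair, and 0 passed 1.5-fold upward and 2 downward, C5ar1 and Vtn, where 5.84% and 5.68% of all genes passed, at a median log2 ratio of -0.05 beside -0.01 over 10968 genes. In the striatum pair 23 reached 20 UMIs, with Colec12 upward and C5ar2 downward, where 5.79% and 7.94% of all genes passed, and a median of -0.02 beside -0.02 over 10439 genes. In astrocyte-like nuclei 1 of 25 passed in cortex, Masp2 upward, with a median of -0.02 beside -0.01, and 3 of 27 in striatum, with C1qa and C1qb upward and 1 gene downward and a median of -0.05 beside -0.000758. All genes there passed upward and downward at 3.15% and 3.55% in cortex and at 4.06% and 3.64% in striatum. The C1q level of astrocyte-like nuclei was near that of oligodendrocyte-like nuclei.

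By role, the proteases that act with C1q were led by other classes than the C1q chains. C1s1 was led by smooth muscle-like nuclei, with 35.8, 38.7, 41.4 and 45.0 CPM. C1ra, its partner, and C2, which joins C4b in the C3-cleaving enzyme, were led by fibroblast-like nuclei, at 1.92 to 6.48 and 9.59 to 28.2 CPM. Of the lectin pathway genes, Colec12, a scavenger receptor, was led by fibroblast-like nuclei (551, 590, 661 and 583 CPM) with macrophage-like nuclei next (286, 468, 520 and 251 CPM). The lectin proteases Masp1 and Masp2 were at 24.7 to 35.3 CPM in oligodendrocyte precursor-like nuclei and 11.7 to 14.2 CPM in interneuron-like nuclei. Of the alternative pathway, Cfp, which stabilizes the C3-cleaving enzyme, reached 0, 45.3, 59.4 and 62.7 CPM in macrophage-like nuclei, while Cfb had 14 UMIs and Cfd 1 UMI in all. The terminal components were sparse, with C8g, C7 and C6 leading at 358, 350 and 333 UMIs. Of the regulators, Csmd1, Csmd3 and Csmd2, large membrane proteins with complement control domains, had the most UMIs and were led by oligodendrocyte precursor-like nuclei, Csmd1 at 3636 to 4232 CPM. Of the further receptors, Calr and Lrp1, which act as a C1q receptor pair, were led by choroid plexus-like and oligodendrocyte precursor-like nuclei at 351 to 699 and 373 to 454 CPM, and Cd93 by pericyte-like nuclei at 185 to 217 CPM with endothelial-like nuclei next.

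The 5 genes whose pattern over 16 classes and 4 libraries was most like that of each complement gene included 2 of the class markers, Ctss and Siglech. Likeness was Pearson's r of log2(CPM + 1) over these 64 points, which share libraries and depth, among 17374 genes, and is a description only. C1qa and C1qb were each other's nearest genes (r = 0.981), followed for C1qa by Gm46224, Tlr7, Spi1 and Arhgap30 (0.936 to 0.929) and for C1qb by Ctss, Tlr7, Cd86 and Gm46224 (0.940 to 0.931). For C1qc the nearest were Tyrobp, Fcrls, Tbxas1, Cd86 and Ptprc (0.940 to 0.928). C3ar1 was nearest to Clec4a3, Ms4a6d, Gm46224, Cd86 and Ms4a6b, C5ar1 to Ms4a6d, Cd48, Adgre1, Gm46224 and Ms4a6b, and Itgam to Gm40645, Siglech, Myo1f, Ptprc and I830077J02Rik, all at 0.897 to 0.946. C3 and C4b had other neighbors. The nearest genes to C3 were Car9, Got1l1, Ucma, Ankrd66 and Dnah10 (0.839 to 0.817), of which Dnah10 is a motile cilium gene, and those to C4b were Apoe, Stk17b, Plekho2, Slc15a2 and Pld2 (0.823 to 0.776).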

How the data were processed

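Single-nucleus RNA sequencing (10x Genomics 3′ chemistry) of pulverised frozen tissue gave 4 libraries. The authors deposited counts of UMIs per gene and nucleus for each library. The submitters' processing notes name Cell Ranger 5.1.1 and mm10, and the annotation, the counting of intronic reads and the removal of background RNA are not given in the sources used here. No other columns of per-sample values were used. The 8 genes, the complement list and the marker lists were chosen with earlier results of these data known, and the rule that scores clusters against markers was partly revised after clusters were seen. The promoter motifs shown were chosen after matches of these and other short motifs were seen.

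Doublets were called per library with Scrublet (scanpy 1.11.5, expected rate 8%), which marked 4.31% to 7.95% of nuclei, and these nuclei and clusters rich in them were left out. Nuclei of all libraries were clustered together on 5000 variable genes without the complement list, with 50 principal components, 15 neighbors and Leiden resolution 1.2 (leidenalg 0.10.2), and immune and vascular clusters again at 0.8. Clusters were named "-like" from at least 3 detected markers, and 3091 nuclei stayed unnamed. Python 3.11.15, numpy 2.4.6, scipy 1.17.1, pandas 2.3.3 and matplotlib 3.10.9 were used.

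UMIs were summed per library and class, and given as CPM of the class. Levels carry exact Poisson intervals, shares Clopper-Pearson intervals and log2 ratios exact conditional binomial intervals (95%), and a level with no UMI has a limit of 3 counts. Each group has 1 library from pooled tissue of 5 mice, so no test was run. A gene counted as past the fold at 1.5-fold with at least 20 UMIs in the pair. List ratios used a pseudocount of 0.5, and likeness one of 1. Shares were also computed with nuclei thinned to 1000 UMIs. Genes named are the 8 members, the 3 other genes with most UMIs in each of 6 roles, the 5 genes most like each member and the 5 leading genes of clusters discussed. Genes outside this rule (Vtn, C5ar2) were chosen after their values were seen, and 1 gene of the list is not reported here. The scripts were tested on simulated data with known levels and ratios. Alternatives were kept doublets, each library clustered on its own, complement genes kept in the clustering, only nuclei with 3 UMIs of their class's markers, UMIs per nucleus, thinning and other count minimums. Alternatives chosen after seeing the data left out clusters of microglia-like nuclei without a leading marker, nuclei above 10000 UMIs, or the nucleus with most UMIs of a gene.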

Additional observations from a re-analysis of the deposited data

Results flagged for a closer look

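Some genes had AAV ratios of opposite direction in the region labels, with counting intervals away from 0 in both, while the difference between the labels was not tested for want of a second library per group. In macrophage-like nuclei the log2 ratio of C1qa, AAV-VEGF-C over AAV-CTRL, was 0.74 in the libraries labelled cortex and -0.55 in those labelled striatum, from 39 and 77, and 130 and 42 UMIs. In endothelial-like nuclei the ratio of the C1q sum was -0.79 in cortex and 0.66 in striatum, and 0.21 in cortex with doublets kept. In ependymal-like nuclei C3 had ratios of 1.10 and -1.09, and C4b of 1.13 and -0.65, in cortex and striatum. For C3, a single nucleus gave 19 of the 29 UMIs in cortex AAV-VEGF-C and 15 of the 20 UMIs in striatum AAV-VEGF-C. For C4b, 1 nucleus gave 10 of the 23 UMIs in cortex AAV-VEGF-C.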

How the results depend on the processing

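No paired analysis was possible because the labels give each group a single library, so that the groups compared share fewer than 2 replicate numbers. The region ratios within a virus already compare tissue of the same pooled mice, and are given for each virus. No library could be left out of a group. Of 1248 values of 173 results under alternatives, 1171 moved by less than their counting interval. The C1q ratio of microglia-like nuclei kept its direction under every alternative run, at 0.23 to 0.31 in cortex and 0.20 to 0.55 in striatum, the last with UMIs per nucleus.

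With doublets kept, the C1q level of microglia-like nuclei was 2193, 2573, 1406 and 1781 CPM and the region ratio -0.64 with AAV-CTRL and -0.53 with AAV-VEGF-C, and C1qa and the C1q sum of endothelial-like nuclei in cortex turned to 0.43 and 0.21 and C1qa by region with AAV-VEGF-C to -0.086. When libraries were clustered separately, the C1q level of striatum AAV-CTRL was 1981 CPM, the shares of nuclei with C1q were 94.4% in cortex AAV-VEGF-C, 88.6% in striatum AAV-CTRL and 92.2% in striatum AAV-VEGF-C, and C4b by region in endothelial-like nuclei with AAV-VEGF-C turned to -0.11. With complement genes in the clustering the striatum AAV-CTRL share was 88.0%. Without clusters of microglia-like nuclei lacking a leading marker, it was 88.7% at 1977 CPM, and that of cortex AAV-VEGF-C 94.8%. With UMIs per nucleus the region ratio of C1q with AAV-VEGF-C was -0.073, and that of ependymal-like nuclei turned to -0.20. With nuclei thinned to 1000 UMIs the C1q shares were 81.9%, 87.6%, 77.9% and 78.7%, and ratios turned for C1qa of fibroblast-like nuclei (-0.70 in cortex, -0.15 by region with AAV-CTRL), C3 (-0.68) and C4b (-0.36) of ependymal-like nuclei in cortex, and Itgam of neuronal nuclei by region with AAV-VEGF-C (-0.10). Without nuclei above 10000 UMIs C3 and C4b of ependymal-like nuclei in cortex were at -3.36 and -0.36. Causes were not tested.

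At a minimum of 100 UMIs, then of 1 UMI in each library, the list genes past 1.5-fold were 0 and 9 in microglia-like nuclei in cortex (2 as reported), 0 and 8 in striatum (2), and 0 and 9 in astrocyte-like nuclei in cortex (1), with 10 at 1 UMI in striatum (3). Over all genes they were 85 and 3443 (1263), 80 and 3698 (1433), 110 and 3041 (939), and 170 and 3228 (1100). Fewer or more genes tested sets these counts. Of 8 genes, the leading class changed for C1qa to macrophage-like with doublets kept, and with each library on its own for C1qc, C3ar1 and C5ar1 to microglia-like and C4b to astrocyte-like.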
